A study of Apis mellifera with 2 samples.

Results

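miR-9a and miR-79 are related miRNAs of the miR-9 family, and their counts were compared in honey bee larvae raised as queens and as workers. They were chosen by name, as the entries ame-miR-9a and ame-miR-79, and make up 2 of the 53 named miRNAs and 2 of all 692 entries in the count table. The other 639 entries are predictions of the authors. Both members passed the minimum of 20 counts over both libraries, as did 49 named miRNAs in all.

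The queen group was made of female larvae of Apis mellifera ligustica that were moved into queen cups less than 18 h after hatching. The worker group was made of larvae left to develop as workers in the same 3 colonies, which belong to the breed Zhenongda No.1, selected for high royal jelly yield. From each colony, 40 to 60 larvae of either caste were frozen whole on days 4, 5 and 6, between 73 and 138 h after hatching. About equal amounts of RNA from these days were then pooled, giving 1 library per caste. The labels name no genetic change and no added agent in either group. Because colonies and days were pooled, variation between colonies cannot be seen, no day can be read on its own, and no p-value was computed. All intervals are at the 95% level unless stated and reflect counting error alone. In RNA of whole larvae, fewer cells that make a miRNA and less of it per cell cannot be told apart.

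miRNAs are short RNAs that guide Argonaute proteins to partly matching messenger RNAs, mostly through the bases near their 5′ end, called the seed, and lower the output of those messages. miR-9 is conserved across animals, and in vertebrates it is known as a miRNA of the developing brain. In Drosophila, miR-9a is made in epithelial cells, where it limits the protein Senseless so that sensory organ precursors stay in the right number, and it limits dLMO (Beadex) in the wing, so that flies without it lose wing margin tissue. Fly miR-79 comes from the opposite arm of a miR-9-like hairpin, and its seed therefore differs from that of miR-9a. The miR-79 seed pairs with the Brd box, an element in the messages of Notch pathway genes. In Caenorhabditis elegans, mir-79 acts in the epidermis and is needed for the migration of certain neurons. These roles come from other species and were not measured in the bee larvae.

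In the RefSeq gene table of Amel_HAv3.1, used here only for names and neighbours, Mir9a and Mir79 lie on different linkage groups. Mir9a has 0 other miRNA genes within 10 kb. Mir79 has 2, Mir306 and Mir9b, and its span overlaps that of Mir9b and lies within that of the protein-coding gene LOC413964. The table does not give strands. How the authors assigned reads between miR-79 and miR-9b, or among the relatives of miR-9a, is not stated in the labels or the table, so both counts are uncertain in this respect. Of 6 names on a list of miR-9 relatives and neighbours, only the 2 members were analysed. miR-9b, miR-9c, miR-306 and miR-4 were not analysed here.

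The first comparison asked how abundant the members were in each caste. miR-9a was read 2497 times in queens and 2793 times in workers. Scaled to counts per 1000000 listed counts (CPM), its level was 939 CPM (903 to 977) in queens and 1205 CPM (1160 to 1250) in workers. The intervals did not overlap, and the worker library was the higher one on this scale.

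miR-79, with the lower level of the pair, was read 1809 times in queens and 1675 times in workers. Its level was 681 CPM (650 to 713) in queens and 722 CPM (688 to 758) in workers, and these intervals overlapped. With this scaling to all listed counts, the 4 levels, low to high, ran from miR-79 in queens and in workers, neighbours that did not differ beyond counting error, to miR-9a in queens and then in workers. The order of the castes turned for both miRNAs in 3 other scalings, given with the caste ratios, while miR-9a lay above miR-79 within each library under any scaling. Both miRNAs were of middling abundance among the named miRNAs. Among all 692 entries, miR-9a and miR-79 ranked 29th and 35th in queens and 36th and 41st in workers. Together they took 0.162% (0.157 to 0.167) of the queen library and 0.193% (0.187 to 0.198) of the worker library, where the totals were 2658259 and 2318675 listed counts.

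Their places among the 53 named miRNAs differed between the libraries. miR-9a ranked 23rd in queens and 29th in workers, although its CPM was higher in workers. Of the named miRNAs, 6 lay below it in queens and above it in workers, and 0 made the opposite move. These were miR-13b, miR-14, miR-252, miR-33, miR-7 and miR-92b, of which miR-13b, miR-7 and miR-92b were past 2-fold toward workers. Over all 49 named miRNAs, 24.5% were past 2-fold toward workers. A miRNA that makes this move must have a lower ratio of queen over worker than miR-9a, so this lean follows from the choice. In workers, miR-33, miR-7 and miR-252 with 2830, 2873 and 2883 counts lay close above miR-9a with 2793. Their order may rest on counting error. miR-79 ranked 29th in queens and 31st in workers, with miR-124, a miRNA of neurons, and miR-7 passing it. Between the members stood 5 named miRNAs in queens and 1, miR-124, in workers. These numbers too may rest on counting error. In queens miR-13b had 2455 counts against 2497 of miR-9a, and miR-14 had 1854 against 1809 of miR-79. In workers miR-124 had 2743 counts against 2793 of miR-9a.

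**Figure D1:**
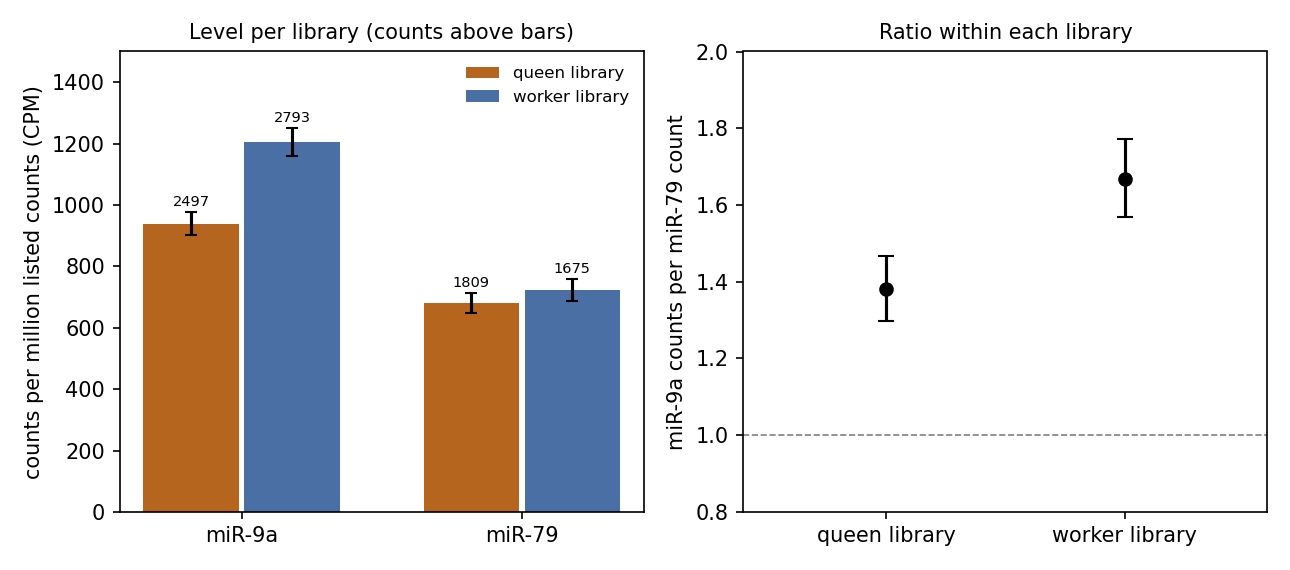
Left, level of miR-9a and miR-79 in CPM (counts per 1000000 listed counts) in the queen and the worker library, with raw counts above the bars; right, miR-9a counts per miR-79 count within each library. Error lines are exact 95% intervals for counting error, with 1 library per caste; the miR-9a intervals lie apart, those of miR-79 overlap, and the ratio is 1.38 in queens and 1.67 in workers.

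The second comparison set the members against each other inside each library, where the scaling of libraries cancels. miR-9a outnumbered miR-79 in both castes. In the queen library there were 1.38 miR-9a counts per miR-79 count (1.30 to 1.47), and in the worker library 1.67 (1.57 to 1.77). Put as a share of the pair, miR-9a held 58.0% (56.5 to 59.5) in queens and 62.5% (61.1 to 63.9) in workers. Because ligation of adapters and PCR work better on some sequences than on others, neither ratio measures molecules of one miRNA per molecule of the other.

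The balance between the members differed between these libraries by more than counting error. The ratio of the within-library ratios, queen over worker, was 0.828 (0.759 to 0.903), or −0.27 (−0.40 to −0.15) on the log2 scale. Its 99% interval ran from 0.739 to 0.927. A sequence bias shared by both libraries cancels in this value, as does depth. With 1 library per caste it cannot be compared with the spread between colonies. Beside the spread of caste ratios among named miRNAs it was small, as the interquartile range of the 49 log2 ratios was 0.93, with quartiles at −0.98 and −0.049.

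The third comparison asked whether either member differed between castes. Neither reached 2-fold in any of 5 scalings. With scaling to all listed counts, the ratio of CPM, queen over worker, was 0.780 (0.739 to 0.823) for miR-9a, a log2 ratio of −0.36 (−0.44 to −0.28). For miR-79 it was 0.942 (0.881 to 1.01), a log2 ratio of −0.09 (−0.18 to 0.01), an interval that includes no difference. Among the 49 named miRNAs, 13 were past 2-fold with an interval excluding 1, which is 26.5% (2.04% toward queens and 24.5% toward workers), and the members gave 0 of 2. At 1.5-fold, 46.9% of the named miRNAs were past the threshold, and the members again gave 0 of 2.

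miR-9a stood at the centre of the named miRNAs. Ordered by log2 ratio from the most queen-leaning, it ranked 25th of 49 and was itself the median, at −0.36. miR-79 ranked 14th and lay 0.27 above that median on the log2 scale. The distance of each member from the median does not change with scaling.

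**Figure D2:**
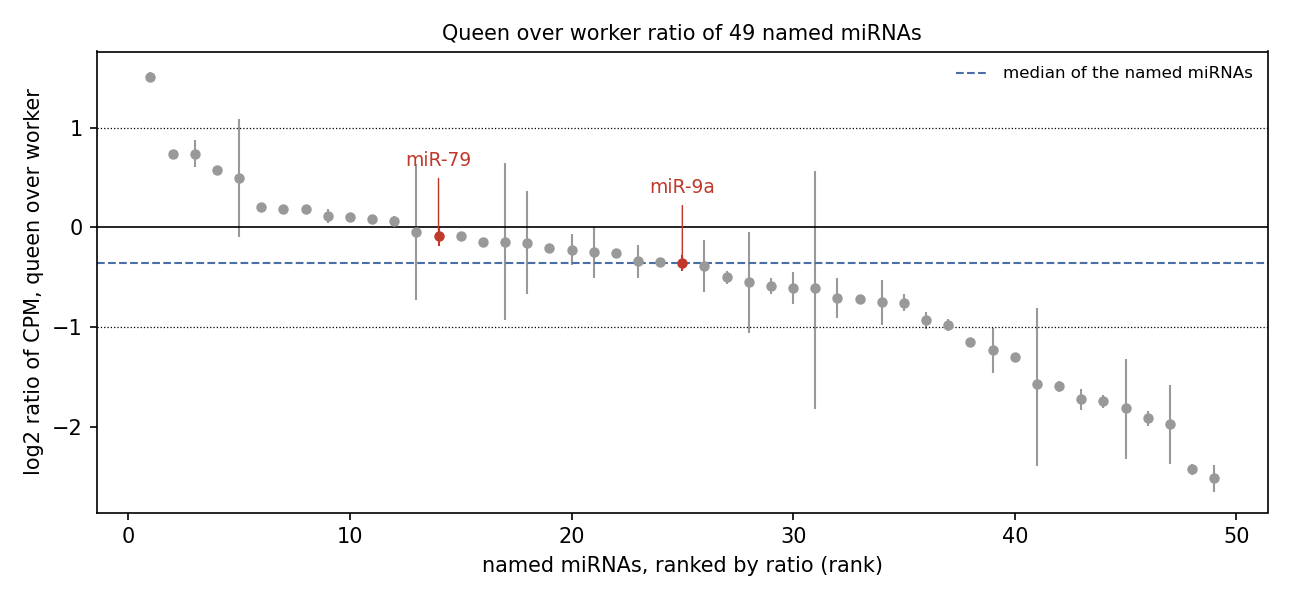
Log2 ratio of CPM, queen over worker, for the 49 named miRNAs with at least 20 counts, ranked from highest to lowest, with 95% intervals for counting error; dotted lines mark 2-fold in either direction and the dashed line the median. miR-79 and miR-9a (red) sit at ranks 14 and 25, miR-9a on the median of −0.36.

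The direction of both members depended on the scaling. miR-9a had a log2 ratio, queen over worker, of 0.067 (−0.011 to 0.15) with edgeR TMM factors and 0.10 (0.02 to 0.18) with DESeq2 median-of-ratios factors. With totals that left out the 5 leading miRNAs it had 0.16 (0.08 to 0.24), and with totals of named miRNAs alone −0.38 (−0.46 to −0.30). It was thus on the queen side in 3 scalings and on the worker side in 2. The corresponding log2 ratios of miR-79 were 0.34 (0.24 to 0.44), 0.37 (0.28 to 0.47), 0.44 (0.34 to 0.53) and −0.11 (−0.20 to −0.01). miR-79 also lay on the queen side in 3 scalings and on the worker side in 2. Over all 5, the intervals of miR-9a reached from −0.46 to 0.24 and those of miR-79 from −0.20 to 0.53. No direction is therefore given to either miRNA. The measure that needs no choice of scaling is the balance of the pair, which leaned more to miR-9a in the worker library. That balance still rests on 1 library per caste and on how reads were assigned between miR-79 and miR-9b. A sequence bias that differs between the libraries does not cancel in it.

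**Figure D3:**
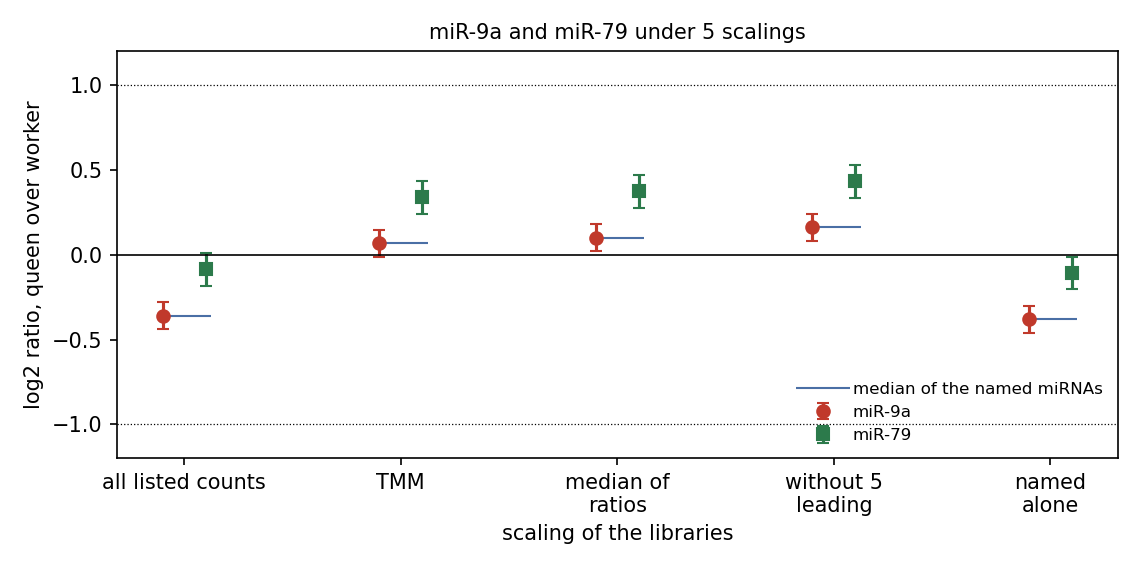
Log2 ratio, queen over worker, of miR-9a (red circles) and miR-79 (green squares) under 5 scalings of the libraries, with 95% intervals for counting error; blue bars mark the median of the named miRNAs and dotted lines 2-fold. Each scaling adds the same amount to every log2 ratio, so miR-79 stays 0.27 above miR-9a by arithmetic. Both members stay within 2-fold.

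The fourth comparison placed the members beside miRNAs with the most similar caste ratio and with similar abundance. The 3 named miRNAs of at least 100 counts whose log2 ratio was closest to that of miR-9a were miR-283 at −0.35, miR-92a at −0.34 and miR-927 at −0.39. Closest to miR-79 were miR-317 at −0.09, miR-100 at −0.15 and miR-13a at −0.15. This likeness rests on 2 libraries only, and intervals of several of these, such as −0.67 to 0.36 for miR-13a on 67 queen and 65 worker counts, are wide.

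Neighbours in abundance often had quite other caste ratios. In the queen library miR-9a lay between miR-263 with 3222 counts and miR-13b with 2455, whose log2 ratios of queen over worker were −2.42 and −1.75. In the worker library it lay between miR-33 with 2830 counts and miR-124 with 2743, at −0.59 and −2.52. miR-79 lay between miR-14 with 1854 counts and miR-315 with 1313 in the queen library, at −0.93 and 0.74. In the worker library its neighbours were miR-124 and miR-10, the second with 752 counts and a log2 ratio of −0.61. Over all 49 named miRNAs, 24.5% were past 2-fold toward workers. Of the neighbours named here, miR-263, miR-13b and miR-124 were, and the others were not past 2-fold. miR-263 and miR-13b were neighbours in the queen library only, and had 15091 and 7181 counts in the worker library. miR-124 was a neighbour in the worker library only, and had 550 counts in the queen library.

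The last comparison took the members with other miRNAs that act in the same fly structures. In the list for sensory organs and bristles, 3 of 6 miRNAs were past 2-fold toward workers and 0 toward queens, where the shares over all 49 named miRNAs were 24.5% and 2.04%. The list had a median log2 ratio of −1.04 against −0.36 for all 49 named miRNAs, but no miRNA of the list lay near −1.04. The list was drawn up with earlier results of these data known, so this comparison is no test. miR-9a was not among the 3 past 2-fold. They were miR-263 and miR-263b, whose fly counterparts keep bristle cells alive, at −2.42 (−2.48 to −2.37) and −1.97 (−2.37 to −1.59), and miR-7, which acts in photoreceptors and sensory precursors, at −1.73 (−1.83 to −1.62). All 3 stayed past 2-fold under the 5 scalings. miR-279 and miR-996, which in flies limit carbon dioxide-sensing neurons, had 0.07 and 0.08. In the 3 scalings that put miR-9a on the queen side, miR-279 and miR-996 had 0.49 to 0.60. There the list's median became −0.62, −0.58 and −0.52, and that of all 49 named miRNAs 0.067, 0.10 and 0.16. miR-9a thus lay between miR-279 and miR-996 on one side and the worker-leaning miRNAs of the list on the other.

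In the list for wing and epithelium, which holds both members and again miR-7, 1 of 8 miRNAs was past 2-fold toward workers and 0 toward queens, beside the same 24.5% and 2.04% over all named miRNAs. The list's median log2 ratio was −0.15, against −0.36 for all 49 named miRNAs. This list too was drawn up with earlier results known, so the comparison is no test. bantam, a growth miRNA of the wing disc, had −0.50 (−0.57 to −0.44), and miR-8, an epithelial miRNA related to vertebrate miR-200, had −0.21. The log2 ratio of bantam turned positive, at 0.020, without the 5 leading miRNAs, and that of miR-8 turned positive, at 0.22 to 0.31, in 3 scalings. miR-iab-4, a miRNA of the Hox complex that can turn halteres toward wings, had 0.10. let-7, which times the end of cell division in the fly wing, had 0.74 (0.71 to 0.76), and miR-315, an activator of Wingless signalling, had 0.74 (0.60 to 0.87). The last 2 passed 2-fold toward queens in the 3 scalings that put the members on the queen side. There the list's median became 0.28, 0.31 and 0.37, and that of all 49 named miRNAs 0.067, 0.10 and 0.16. In those scalings 4, 4 and 5 of all 49 named miRNAs passed toward queens. The members stayed inside 2-fold throughout.

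**Figure D4:**
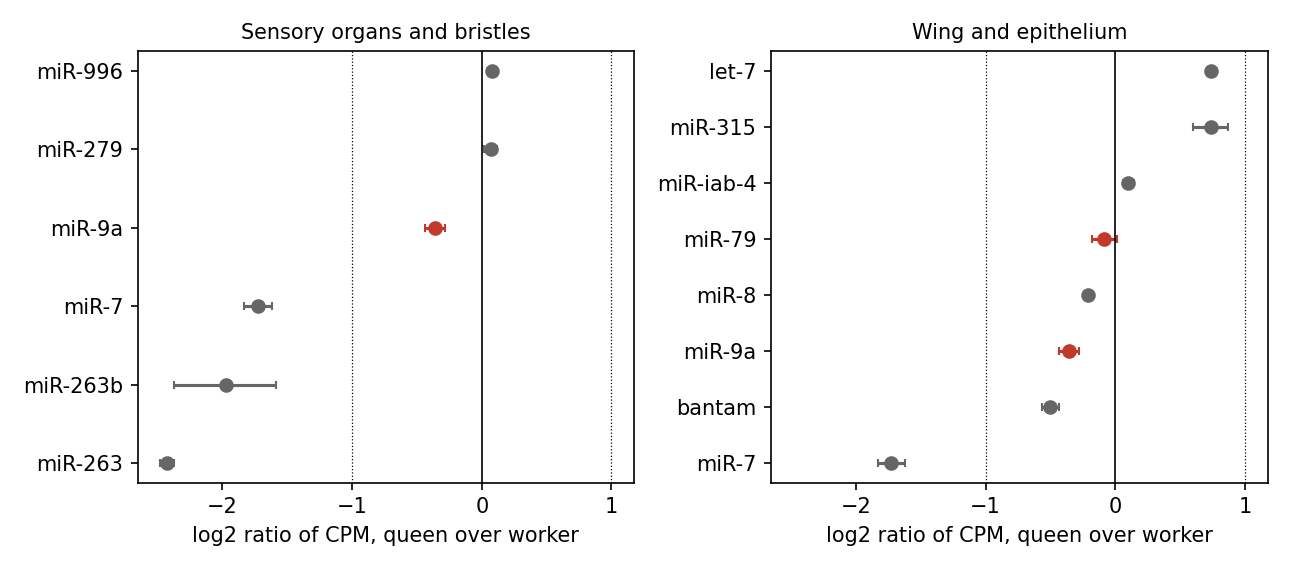
Log2 ratio of CPM, queen over worker, for miRNAs of 2 lists named from their roles in Drosophila, with 95% intervals for counting error; dotted lines mark 2-fold, and miR-9a and miR-79 are red. miR-7, miR-263 and miR-263b lie past 2-fold toward workers, at −1.73, −2.42 and −1.97, and both members lie within 2-fold.

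Of 3 tissue miRNAs, 2 were past 2-fold toward workers, beside 24.5% of all 49 named miRNAs. These were miR-124 of neurons with a log2 ratio of −2.52 and miR-133 of muscle with −1.81, on 46 queen and 141 worker counts. The muscle miRNA miR-1, with 398994 queen and 417277 worker counts, was not past 2-fold, at −0.26. That value turned positive, at 0.16 to 0.26, in 3 scalings. The part of these 3 miRNAs in the values of miR-9a and miR-79 was not tested.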

How the data were processed

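Small RNA of 18 to 30 nt was taken from a gel, ligated to a 5′ and then a 3′ adapter, amplified and sequenced on the Solexa platform, per the labels' protocols. The authors deposited whole-number counts per miRNA, with 1 column per caste. Neither labels nor table name the aligner, caller or genome build, or how reads shared by several miRNAs were handled. The table's 242 further columns hold 0 values.

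From these counts, CPM was computed with the totals of all listed entries, and 1 count equals 0.376 CPM in queens and 0.431 CPM in workers. Ratios of CPM, queen over worker, carry exact conditional (Clopper-Pearson) 95% intervals, shares carry exact binomial ones, and the ratio of ratios is a conditional odds ratio with its exact interval. Reads copied by PCR and carrying no molecular identifier are not independent, so intervals may be too narrow. A miRNA was called at a ratio of at least 2, or its inverse, with an interval excluding 1. Scaling factors alone were taken from edgeR 4.0.16 (TMM) and DESeq2 1.42.0 in R 4.3.3. Both were given all 692 entries, including the 639 predictions, and not the named miRNAs alone. Intervals came from scipy 1.17.1 under Python 3.11.15, with pandas 2.3.3 for tables and matplotlib 3.10.9 for figures. The calling step was tested on simulated counts that varied by counting error alone, with the most abundant entries left unchanged. That test covers neither the choice of scaling nor spread between replicates.

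The text names the members, the listed miRNAs, the 3 closest in ratio, the direct neighbours in abundance, and miRNAs that change sides with a member, the last chosen after their values were seen. The members and lists were chosen with earlier results of these data known. Mature sequences, and a planned search for shared seeds, were not used here.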

Additional observations from a re-analysis of the deposited data

How the results depend on the processing

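The log2 ratio of queen over worker of miR-9a (−0.36) became 0.067 with edgeR TMM factors, 0.10 with DESeq2 median of ratios and 0.16 with totals without the 5 leading miRNAs, and that of miR-79 (−0.09) became 0.34, 0.37 and 0.44. Each scaling adds the same amount to every log2 ratio, namely 0.43, 0.46 and 0.52. Named miRNAs called higher in the queen library (1) became 4, 4 and 5 with these scalings, 3 at a fold of at least 1.5 and 0 at a fold of at least 4. Those called higher in the worker library (12) became 20 at 1.5-fold and 2 at 4-fold, and 9 with each of the 3 scalings. Totals of named miRNAs alone, other minimum counts and a 99% interval left these counts within 1.5 times. Adding 1 count to each member left the ratios within the libraries and the ratio of ratios inside their intervals. Shares without the 5 leading miRNAs in the total were 0.561% in queens and 0.501% in workers for miR-9a, and 0.406% and 0.301% for miR-79. No paired analysis was possible because the design has 1 library on each side, so none could be left out either. With 1675 to 2793 counts per member and library, counting error is small beside the choice of scaling.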
